A study of Mus musculus with 12 samples.

Results

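The genes described here carry out the licensing of replication origins and the work of the replication fork. They were chosen by name: 47 genes coding for the origin recognition complex, its loading factors, the MCM helicase and its activators, the replicative polymerases, the sliding clamp, single-strand binding proteins, Okazaki fragment enzymes and fork protection proteins. Of these, 45 were among the 30399 genes of the table, and Cdt1 and Gins2 were not analysed here. All 45 had a mean value of at least 1 and were tested with 23674 genes in all.

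Before a cell copies its DNA, the origin recognition complex (ORC) marks origins, and Cdc6 together with Cdt1 loads the ring-shaped MCM2-7 helicase there, a step called licensing that geminin (Gmnn) blocks once copying has begun. The kinase Cdc7 with its partner Dbf4 then lets Cdc45 and the GINS complex join MCM2-7 to form the active helicase. Behind it, primase and polymerases alpha, delta and epsilon make new DNA, helped by the clamp PCNA and its loader RFC, while RPA covers single strands and Fen1 and Lig1 finish the lagging strand. Most of these genes are transcribed in cells that are dividing, and most cells of an adult lung are not.

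RNA was compared between 5 samples labelled normal lung and 7 labelled tumor, all from mice, in a study that made lung cancer models with CRISPR/Cas9 delivered without a virus. The labels do not give the edited genes, strain, age or sex, nor what the normal lung mice received. The titles of tumors 1 and 7 name the trachea, and those of tumors 3, 4, 5 and 6 and of normal lung 5 name the lung. Tumors 3 and 4 share the title number 159 and tumors 5, 6 and 7 share 201, so the tumors carry 4 numbers, and nothing says that each came from its own animal. The p-values therefore measure the spread between these samples, which may in part be technical, and not the spread between animals. Tumors that share a number may not be independent, and standard errors and p-values could then be too small.

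Each normal lung had between 11126432 and 17032234 assigned reads and each tumor between 13093843 and 24217633. The labelled tissue was checked by marker genes. All 10 lung epithelial markers were lower in tumor (summed level 289486 to 509800 in normal lung, 799 to 3338 in tumors), as were all 8 endothelial markers, and all 10 neuroendocrine markers were higher (252 to 343 in normal lung, 38579 to 146753 in tumors). Sftpa1 and Sftpd were listed at 0 in at least 1 tumor. Normal lung 3 and tumors 2, 5, 6 and 7 had a summed level of 0 for 4 Y-linked genes, tumors 3 and 4 had 1.98 and 8.08, and tumor 1 and the remaining normal lungs had 2536 to 3113. The Y-linked level thus largely followed the groups and cannot be fully told apart from them. The results below are touched by tumor 7 and normal lung 3. Tumor 7 stood low for most replication genes and high among tumors for leukocyte, cardiac, fibroblast and most endothelial markers. Normal lung 3 stood high for replication genes among normal lungs and had a much higher erythroid sum.

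Replication genes often carry binding sites for E2F factors, which drive transcription at the entry to S phase, so their promoters were searched first. RefSeq (GRCm38.p6, a different build from the one in the submitters' notes) gave windows from 250 bases before to 50 bases after the gene start for 37 of the 45 genes, and had none for Gins1, Gins4, Gmnn, Mcm4, Pole, Prim2, Rfc2 and Tipin. The words searched on both strands were TTTCCCGC, TTTCGCGC, TTTGCCGC and TTTGGCGC. At least 1 of them was found in 15 of 46 replication gene promoters (32.6%), against 744 of 32851 RefSeq promoters of the same length (2.26%). That comparison set was not limited to the genes measured here. Counted by gene, 15 of 37 (40.5%) held a word, against 704 of 27025 (2.60%). A match of letters is a description only. The words are given below on the strand of the gene, 5′ to 3′, with the E2F words in capitals, whether they read forward or as their reverse complement; in the 12-letter capital runs of Mcm5 and Mcm6 a forward and a reverse word share letters.

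The promoters with the most words belong to subunits of one helicase and to 1 subunit of the clamp loader. Mcm6 had 3 words, and Mcm3, Mcm5, Mcm7 and Rfc3 had 2 each. The 250 bases before the start hold every word of Mcm6 and Mcm5 and 1 word each of Mcm7 and Rfc3. For Mcm6 the window is chr1:128359706-128359955 on the minus strand, with 102, 98 and 39 bases between each word and the start.
Mcm6: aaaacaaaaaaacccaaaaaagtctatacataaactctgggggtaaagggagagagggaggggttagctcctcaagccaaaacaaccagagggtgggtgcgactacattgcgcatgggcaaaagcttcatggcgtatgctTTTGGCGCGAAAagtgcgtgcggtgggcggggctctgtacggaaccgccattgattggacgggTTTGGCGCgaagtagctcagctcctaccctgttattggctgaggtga
For Mcm5 it is chr8:75109259-75109508 on the plus strand, with 145 and 141 bases between the words and the start.
Mcm5: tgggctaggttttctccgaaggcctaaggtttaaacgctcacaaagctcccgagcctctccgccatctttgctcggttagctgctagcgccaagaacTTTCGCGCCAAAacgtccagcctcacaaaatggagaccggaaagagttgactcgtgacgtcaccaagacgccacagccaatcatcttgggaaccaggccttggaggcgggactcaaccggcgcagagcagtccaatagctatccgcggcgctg
For Mcm7 it is chr5:138171884-138172133 on the minus strand, with 157 bases between the word and the start.
Mcm7: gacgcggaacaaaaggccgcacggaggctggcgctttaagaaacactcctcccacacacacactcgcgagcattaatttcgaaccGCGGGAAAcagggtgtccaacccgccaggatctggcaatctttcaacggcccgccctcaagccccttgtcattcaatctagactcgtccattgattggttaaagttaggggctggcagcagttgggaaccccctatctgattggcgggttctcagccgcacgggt
For Rfc3 it is chr5:151651209-151651458 on the minus strand, with 2 bases between the first word and the start.
Rfc3: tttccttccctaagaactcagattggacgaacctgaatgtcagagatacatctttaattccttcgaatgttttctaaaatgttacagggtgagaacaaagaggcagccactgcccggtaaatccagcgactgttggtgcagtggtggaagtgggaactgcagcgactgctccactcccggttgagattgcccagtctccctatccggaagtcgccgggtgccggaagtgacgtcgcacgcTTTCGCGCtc

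Stretches of 30 bases around the words of other genes are shown for genes with large and small changes in tumor. The search fixed the words, so their likeness is no result. Clspn and Lig1 rose by 5.81 and 4.31 on the log2 scale, Orc1 by 1.35, and Orc3 was at 0.40.
Clspn (chr4:126556990-126557019, plus strand, after the start): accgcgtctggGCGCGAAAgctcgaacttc
Lig1 (chr7:13278841-13278870, plus strand, after the start): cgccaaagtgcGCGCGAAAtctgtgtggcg
Cdc6 (chr11:98908002-98908031, plus strand, before the start): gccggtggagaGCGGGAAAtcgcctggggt
Mcm3 (chr1:20820275-20820304, minus strand, after the start): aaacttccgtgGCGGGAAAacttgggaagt
Orc1 (chr4:108579416-108579445, plus strand, before the start): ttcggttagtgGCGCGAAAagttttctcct
Orc3 (chr4:34614965-34614994, minus strand, before the start): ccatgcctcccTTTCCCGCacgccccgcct
Genes with a word had a median log2 fold change of 2.75 and those without one 2.33, a description with no test. Orc3, with a word at 33 bases from the start, was not called, and Wdhd1, Prim1 and Mcm2, without any, rose by 4.65, 4.48 and 3.83. The CCAAT box (CCAAT) was present in 24 of 46 promoters (52.2%) against 37.4% of all, and the CHR word of late cell cycle genes (TTTGAA) in 8 of 46 (17.4%) against 17.9%.

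Replication genes were higher in tumor almost without exception. Values are the deposited normalized read counts, and a log2 fold change is the tumor mean minus the normal lung mean of log2(value + 1), which understates the change of low genes; a gene was called at a Benjamini-Hochberg adjusted p under 0.05 in limma over all genes. Of the 45 genes 43 were called higher and 0 lower, while 31.4% of all tested genes were called higher and 30.1% lower. All 45 log2 fold changes were above 0, so 0 were lower at an unadjusted p under 0.05 in limma too, and edgeR and DESeq2 also called 0 lower. With a change of at least 2-fold as well, 41 were called, against 24.0% of all genes. In 42 genes every tumor lay above every normal lung, which held for 20.1% of all genes. The median log2 fold change was 2.47, against 0.04 over all tested genes, and 14 genes had a value of at least 3, that is 8-fold. In bulk tissue more cells in S phase and more RNA per cell cannot be told apart. These genes took 0.0594% to 0.0695% of the reads of a normal lung and 0.252% to 0.439% of those of a tumor.

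**Figure D1:**
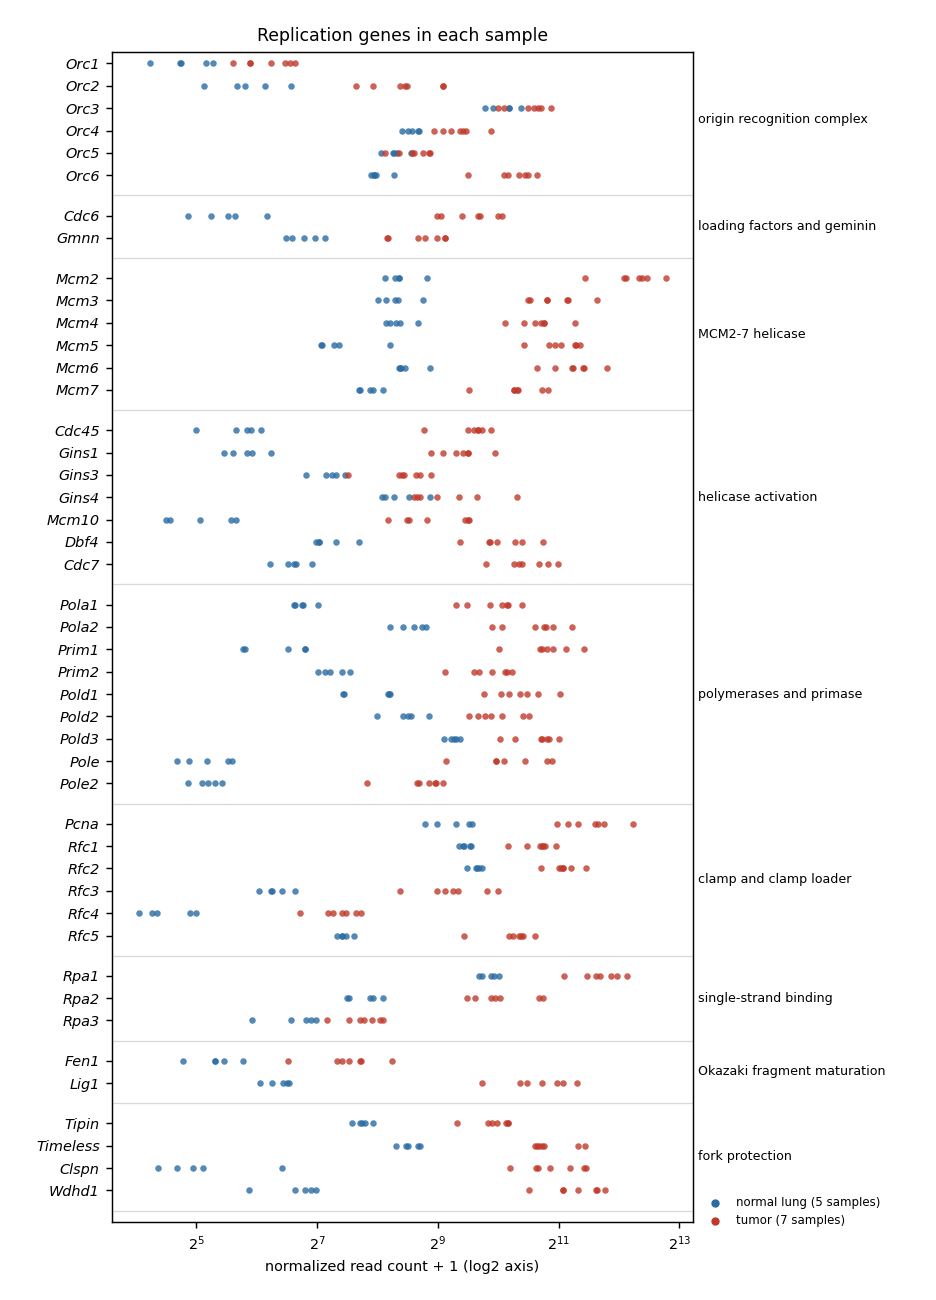
Normalized read count plus 1 on a log2 axis for each replication gene, grouped by role, with 1 point per sample (blue, 5 normal lungs; red, 7 tumors). The groups overlap for Orc3, Orc5 and Gins4 and are apart for the other 42 genes.

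**Figure D2:**
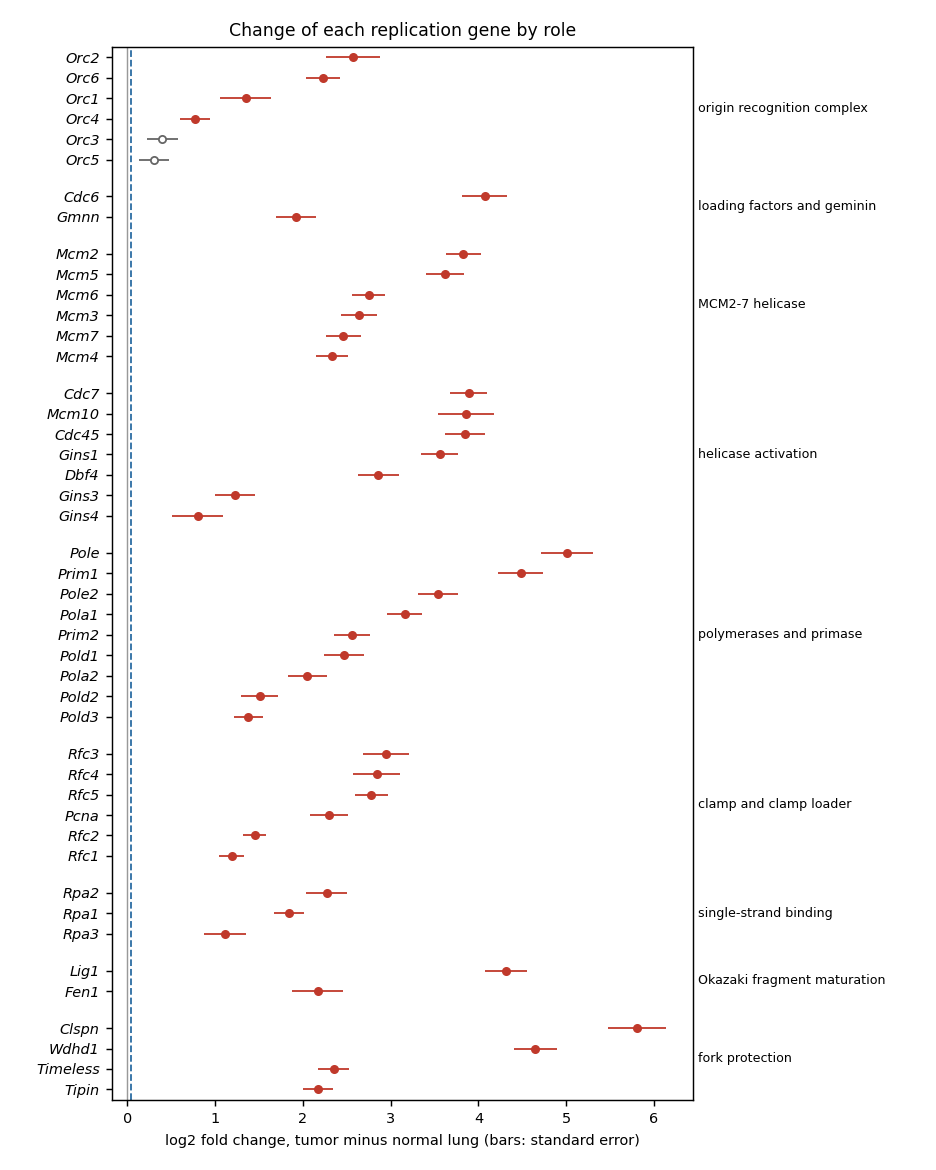
Log2 fold change of each gene, tumor minus normal lung, with its standard error, sorted within its role. Filled points were called higher, open points (Orc3 and Orc5) were not called, and the dashed line is the median of all tested genes, 0.04. The range runs from 0.30 for Orc5 to 5.81 for Clspn.

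The origin recognition complex had the smallest median change of the roles. Of its 6 subunits 4 were called higher, and the median log2 fold change was 1.06. Orc2, a core subunit, was at 69.6, 54.8, 50.1, 33.9 and 94.3 in normal lungs 1 to 5, and at 198, 349 and 543 in the lowest, median and highest tumor. All tumors lay above the highest normal lung, and the log2 fold change was 2.57 ± 0.31 (SE, adjusted p = 1.01e-05). Orc6, the smallest subunit, rose by 2.23 ± 0.19 and its lowest tumor, at 726, was above the highest normal lung, at 309. Orc1, the ATPase that works with Cdc6 in loading, was at 34.8, 25.8, 17.8, 25.4 and 37.9 in normal lung and at 47.6, 74.7 and 97.7 in the lowest, median and highest tumor. That was an increase of 1.35 ± 0.29 (adjusted p = 0.00126) on a low base. Orc4 rose by 0.77 ± 0.17 with groups that did not overlap.

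Orc3 and Orc5 were the genes that were not called. Orc3 was at 1159, 1161, 964, 879 and 1324 in normal lung and at 1020, 1545 and 1880 in the lowest, median and highest tumor. Tumors 6 and 7 lay within the range of normal lung and the other 5 above it (log2 fold change 0.40 ± 0.18, adjusted p = 0.0608). Orc5 was at 266, 320, 305, 374 and 307 in normal lung and at 279, 389 and 466 in the lowest, median and highest tumor. Again tumors 6 and 7 were within the normal range (0.30 ± 0.17, adjusted p = 0.144). Without tumor 7 both were called, Orc3 at 0.48 (adjusted p = 0.0174) and Orc5 at 0.37 (adjusted p = 0.0483).

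Per kilobase of exon, the most abundant ORC subunit in normal lung was Orc3, at 180 ± 29 (SD, n = 5) normalized reads, and the least was Orc1, at 8.15 ± 2.32. In tumors Orc6 came first, at 502 ± 115 (SD, n = 7), then Orc3 at 241 ± 50.9, and Orc1 was again last, at 21.2 ± 5.6. Orc2, next to last in normal lung at 15.7 ± 5.9, reached 94.8 ± 34.6, a level within 1 SD of Orc4 at 88.3 ± 19.9. Exon lengths come from GENCODE M21, so levels per kilobase are approximate for genes whose shorter transcripts predominate.

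**Figure D3:**
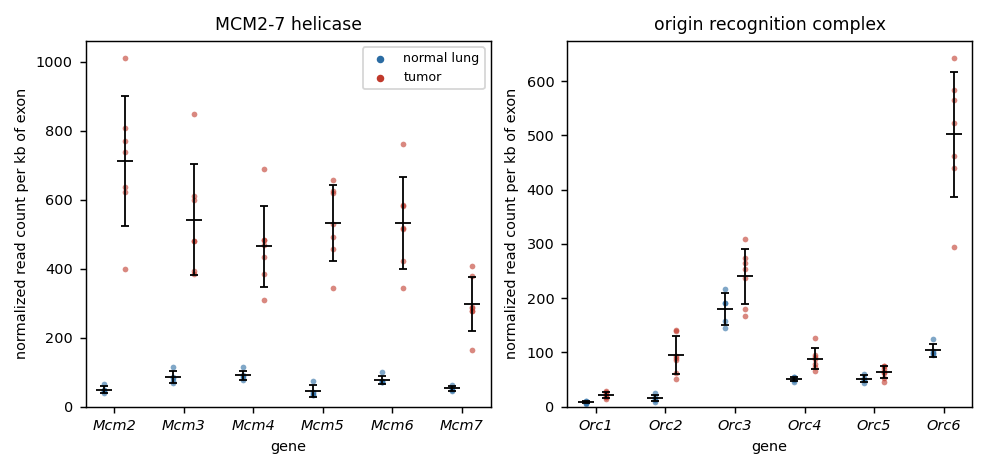
Normalized read count per kilobase of exon for the 6 MCM2-7 subunits (left) and the 6 ORC subunits (right), with 1 point per sample and bars for the mean and SD (5 normal lungs in blue, 7 tumors in red). The MCM subunits are all higher in tumors and lie within 2.39-fold of each other there, while ORC subunits span 23.7-fold.

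Both measured genes of the loading step were higher. Cdc6, the ATPase that recruits MCM2-7 to ORC, was at 49, 28, 71.1, 36.7 and 44.8 in normal lung and at 506, 807 and 1068 in the lowest, median and highest tumor. The lowest tumor was thus far above the highest normal lung (log2 fold change 4.07 ± 0.26, adjusted p = 2.94e-08). Gmnn, the inhibitor of licensing, was at 89, 139, 124, 109 and 95.4 in normal lung and at 283, 442 and 556 in the lowest, median and highest tumor. Its groups were apart too, with a smaller increase of 1.92 ± 0.23 (adjusted p = 7.56e-06).

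All 6 subunits of the MCM2-7 helicase were higher, with log2 fold changes from 2.33 to 3.83 and a median of 2.69. Mcm2 changed most and was at 311, 328, 452, 279 and 328 in normal lung and at 2784, 5136 and 7040 in the lowest, median and highest tumor. Every tumor was above every normal lung, with tumor 7 lowest and tumor 3 highest (3.83 ± 0.20, adjusted p = 5.32e-09). Mcm5 followed at 3.62 ± 0.22, then Mcm6 at 2.75 ± 0.19, Mcm3 at 2.64 ± 0.21 and Mcm7 at 2.46 ± 0.20. Mcm4 changed least and was at 293, 331, 407, 281 and 314 in normal lung and at 1109, 1678 and 2473 in the lowest, median and highest tumor (2.33 ± 0.18, adjusted p = 1.77e-07). The subunits form a ring with 1 copy of each. Their levels per kilobase in normal lung ran from 44.2 ± 17 for Mcm5 and 48.8 ± 9.49 for Mcm2 to 90.6 ± 13.9 for Mcm4 (SD, n = 5). In tumors Mcm2 was first, at 713 ± 189, and Mcm7 last, at 298 ± 79.1 (SD, n = 7), with Mcm3, Mcm5, Mcm6 and Mcm4 between 464 and 542 and within 1 SD of each other.

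The 7 genes of helicase activation were all higher, with a median log2 fold change of 3.56, but the GINS subunits differed widely. Cdc7, the catalytic subunit of the activating kinase, was at 99.3, 120, 96.9, 73.4 and 90.8 in normal lung and at 893, 1348 and 2041 in the lowest, median and highest tumor (3.89 ± 0.21, adjusted p = 5.52e-09). Dbf4, its regulatory subunit, was at 157, 130, 207, 130 and 125 in normal lung and at 662, 1011 and 1718 in the lowest, median and highest tumor (2.86 ± 0.23, adjusted p = 2.02e-07). Neither gene's groups overlapped. Cdc45, which joins MCM2-7 in the active helicase, was at 65.8, 59.1, 56.5, 31 and 49.4 in normal lung and at 437, 812 and 937 in the lowest, median and highest tumor (3.85 ± 0.23, adjusted p = 1.59e-08). Mcm10, needed for the helicase to start unwinding, rose by 3.86 ± 0.32.

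Of the GINS subunits measured, Gins1 rose by 3.56 ± 0.21 and Gins3 by 1.23 ± 0.23. Gins4 was at 268, 368, 310, 468 and 279 in normal lung and at 387, 505 and 1266 in the lowest, median and highest tumor. Tumors 5, 6 and 7 lay within the range of normal lung, and the highest value was that of tumor 2. The increase of 0.80 ± 0.29 was called (adjusted p = 0.0284), but the call was lost without normal lung 1 (adjusted p = 0.0685), normal lung 3 (0.0571), normal lung 5 (0.0643) or tumor 3 (0.0541), and when the model held the Y-linked level (0.121). Tumor 2 had the highest Gins4 and the lowest Gins3 of all tumors, at 182 against 328 to 474 in the others.

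All 9 polymerase and primase genes were higher, with a median of 2.56. Pole, the catalytic subunit of the leading-strand polymerase epsilon, was at 28.4, 24.7, 45.2, 35.3 and 47.1 in normal lung and at 561, 1094 and 1899 in the lowest, median and highest tumor. It changed most of this role (5.01 ± 0.30, adjusted p = 1.24e-08), and its tumors also had the widest range among the 45 chosen genes, 3.38-fold. Its partner Pole2 rose by 3.54 ± 0.23. Pold1, the catalytic subunit of polymerase delta, was at 293, 173, 291, 171 and 289 in normal lung and at 869, 1313 and 2082 in the lowest, median and highest tumor (2.47 ± 0.23, adjusted p = 1.02e-06). Its partner Pold2 rose by 1.51 ± 0.21. Pold3 changed least, at 592, 631, 617, 656 and 546 in normal lung and at 1042, 1681 and 2045 in the lowest, median and highest tumor (1.38 ± 0.17, adjusted p = 1.2e-05), and its groups were still apart. In the primase complex, which starts each new strand, the 2 primase subunits Prim1 and Prim2 rose by 4.48 ± 0.26 and 2.56 ± 0.20, and the polymerase alpha subunits Pola1 and Pola2 by 3.16 ± 0.20 and 2.05 ± 0.22.

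The clamp PCNA and the 5 subunits of its loader RFC were all higher, with a median of 2.54. Pcna rose by 2.30 ± 0.22, from 438 to 754 in normal lung to 2004 to 4828 in tumors. Rfc3, a small loader subunit, was at 74.8, 74.2, 84, 98.7 and 64.4 in normal lung and at 329, 606 and 1025 in the lowest, median and highest tumor (2.95 ± 0.26, adjusted p = 4.89e-07). Rfc4 and Rfc5 were close to it, at 2.84 ± 0.27 and 2.78 ± 0.19. Rfc1, the large subunit, was at 653, 736, 745, 686 and 684 in normal lung and at 1143, 1697 and 1977 in the lowest, median and highest tumor (1.19 ± 0.14, adjusted p = 8.58e-06). Rfc2 rose by 1.45 ± 0.13. Per kilobase the order was the same in both tissues, Rfc2 first and Rfc4 last, but the span narrowed from 8.57-fold in normal lung to 3.21-fold in tumors.

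The 3 subunits of RPA, which coats single-stranded DNA, were all higher, with a median of 1.84. Rpa2 was at 183, 241, 234, 271 and 180 in normal lung and at 717, 989 and 1714 in the lowest, median and highest tumor (2.27 ± 0.23, adjusted p = 2.27e-06). Rpa3 was at 59.3, 126, 111, 118 and 94.3 in normal lung and at 142, 219 and 272 in the lowest, median and highest tumor (1.11 ± 0.24, adjusted p = 0.0013). The lowest tumor was just above the highest normal lung for Rpa3 and well above it for Rpa2. Rpa1, the large DNA-binding subunit, rose by 1.84 ± 0.17.

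Both Okazaki fragment genes were higher. Lig1, the ligase that seals the fragments, was at 85.1, 65.6, 92.1, 74.8 and 89.7 in normal lung and at 845, 1691 and 2531 in the lowest, median and highest tumor (4.31 ± 0.24, adjusted p = 9.08e-09). Fen1, the nuclease that removes flaps before sealing, was at 38.7, 43, 38.8, 53.6 and 26.4 in normal lung and at 90.5, 183 and 300 in the lowest, median and highest tumor (2.17 ± 0.29, adjusted p = 2.7e-05). Neither overlapped between groups. Fen1 shares 78.8% of its exon length with Gm10143 on the opposite strand, which was itself at 0 to 1.29 in normal lung and 0.633 to 8.92 in tumors. Use of the strand in counting is not given in the sources used here, so reads of such pairs cannot be told apart and the level of Fen1 is uncertain.

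The 4 fork protection genes included the largest change of all. Clspn, the checkpoint adaptor that travels with the fork, was at 33.5, 24.7, 84, 19.7 and 29.9 in normal lung and at 1171, 1845 and 2790 in the lowest, median and highest tumor. Normal lung 3 was far above the other normal lungs and still far below every tumor (5.81 ± 0.33, adjusted p = 9.08e-09; without normal lung 3 the change was 6.13). Wdhd1, which links the helicase to polymerase alpha, rose by 4.65 ± 0.25. Tipin was at 214, 209, 221, 190 and 241 in normal lung and at 636, 1003 and 1150 in the lowest, median and highest tumor (2.17 ± 0.17, adjusted p = 1.31e-07). Its partner in the fork protection complex, Timeless, rose by 2.35 ± 0.18.

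Exons of 12 of the 45 genes overlap those of another listed gene, which makes their counts uncertain. For 11 of them the other gene lies on the opposite strand, and for Pole2 it lies on the same strand (Gm49384, 245 bases). Besides Fen1 the largest shares were 29.8% for Orc2 with Nif3l1 and 15.1% for Rfc2 with Lat2. Nif3l1 was at 289 to 397 in normal lung and 256 to 857 in tumors. Lat2 was at 64.9 to 206 in normal lung and 173 to 1426 in tumors. Rfc4 shares 12.7% of its exon length with Eif4a2, a far more abundant gene at 3263 to 3974 in normal lung and 2411 to 2995 in tumors, where Rfc4 itself was at 15.5 to 30.7 and 104 to 210.

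Ratios between genes within a sample show where partners changed unequally. They depend on a sample's scaling only through the 1 added to each value. Of 5 log2 ratios of value + 1, 4 differed between the groups with no overlap (exact two-sided permutation test over all arrangements of the labels, p = 0.00253 for each, the smallest it can give, and adjusted p = 0.00316 over the 5). That test takes tumors of one title number as separate samples. With those tumors averaged, the same test gave an adjusted p of 0.0198 for each of the 4. Dbf4 to Cdc7 was 0.66, 0.11, 1.09, 0.81 and 0.46 in normal lung and -0.82, -0.43 and -0.01 in the lowest, median and highest tumor. The count of the kinase's regulatory subunit thus fell relative to that of its catalytic subunit, a difference of -1.03. Counts do not allow for length. Per kilobase of exon the mean of Dbf4 was below that of Cdc7 in both tissues. The values were 17.2 ± 3.92 against 23 ± 4.05 in normal lung (SD, n = 5) and 128 ± 39.7 against 350 ± 92.7 in tumors (SD, n = 7). In normal lung 3 alone Dbf4 was not below Cdc7 per kilobase, and the order was not tested. Orc1 to Orc2 was -0.98, -1.06, -1.44, -0.40 and -1.29 in normal lung and -3.18, -1.94 and -1.67 in the lowest, median and highest tumor, a difference of -1.22. Pole to Pold1 was -3.32, -2.76, -2.66, -2.24 and -2.59 in normal lung and -1.05, -0.13 and 0.41 in the lowest, median and highest tumor, a difference of 2.55. Per kilobase of exon Pole remained below Pold1 in tumors, at 112 ± 42.8 against 279 ± 82.5 (SD, n = 7), and was at 3.24 ± 0.89 against 50 ± 13.4 in normal lung (SD, n = 5).

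Mcm2 to Mki67, a replication gene against a general marker of cycling cells, was -0.79, -0.19, -1.22, -0.15 and -0.38 in normal lung and -2.28, -1.90 and -1.65 in the lowest, median and highest tumor. The difference of -1.39 means that Mki67 rose by more than Mcm2. Mki67 itself went from 310 to 1055 in normal lung to 10402 to 27360 in tumors. Cdc45 to Mcm2 was -2.22, -2.45, -2.98, -3.13 and -2.70 in normal lung and -3.11, -2.67 and -2.38 in the lowest, median and highest tumor. These overlapped, and the difference of 0.02 was not resolved (exact permutation test, p = 0.944, adjusted p = 0.944) beside SDs of 0.37 in normal lung and 0.25 in tumors.

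**Figure D4:**
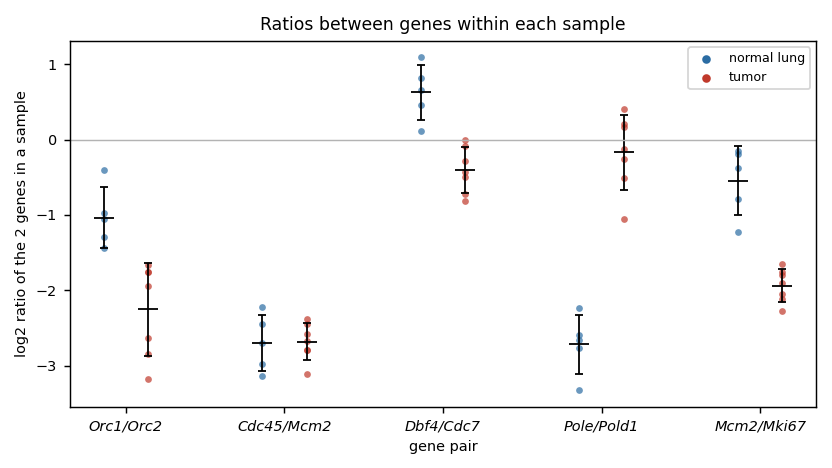
Log2 ratio of 2 genes in each sample (blue, 5 normal lungs; red, 7 tumors), with bars for the mean and SD. The groups are apart for Orc1/Orc2, Dbf4/Cdc7, Pole/Pold1 and Mcm2/Mki67 and overlap for Cdc45/Mcm2.

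Tumors also varied among themselves. The fold between the highest and lowest tumor had a median of 2.22 and ran from 1.67 for Rfc2 to 3.38 for Pole. Tumor 7, whose title names the trachea, was the lowest tumor for 34 of the 45 genes (75.6%), while it was lowest for 21.2% of all tested genes, and it was the highest for 0. Its median log2 difference from the mean of the other tumors was -0.66, against -0.03 over all genes. It was below the mean of the tumors for 44 of the 45 genes. Pole had the largest gap, at -1.23, and Gins3 was the exception, at 0.33. Even so tumor 7 was above every normal lung for 42 genes, the same 42 in which every tumor was. Every tumor lay above every normal lung for 20.1% of all tested genes, and the share for tumor 7 alone was not computed. Without tumor 7 the median fold between tumors was 1.8, and Tipin had the narrowest range, 1.27-fold.

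Markers of other tissues moved with tumor 7. Its summed level of 9 leukocyte markers was 9482, against at most 2679 in the other tumors and 6799 to 11226 in normal lung. Cd3e, a T cell marker, was listed at 0 in tumors 1, 2 and 3, and stood at 248 in tumor 7. The sum of 5 cardiac muscle markers was 30427 against at most 2190 in other tumors and 305 to 3897 in normal lung, and that of 7 fibroblast and smooth muscle markers 28660 against at most 15683 in other tumors and 12684 to 25608 in normal lung. None of these markers was at 0 in tumor 7, and each was highest there among tumors except S100a8 and Pdgfra. S100a8, a leukocyte marker, was at 1.92 in tumor 7, the value of 3 reads, and at 1296 in tumor 2. Pdgfra, a fibroblast marker, was at 781 in tumor 7, against 2949 in tumor 3 and at least 3783 in normal lung. The endothelial sum of tumor 7 was 6627, below the 7484 of tumor 1, where Vwf was at 6522. Every other endothelial marker was highest among tumors in tumor 7. Tumor 7 also had the lowest sums among tumors of the 12 markers of cycling cells, 19519, and of the neuroendocrine markers, 38579. The part of other tissues in its low replication genes was not tested, and leaving it out brought the count of genes called higher to 45.

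Tumor 3 was highest for 14 genes (31.1%, against 11.9% of all tested genes), among them Mcm2, Mcm3, Mcm4, Mcm6, Mcm7 and Pcna. Tumor 4 was highest for 9 (20.0%, against 9.61%) and lowest for 0 (against 7.92%). Tumor 2 was highest for 11, including Pole, Pold1, Pold2, Pold3 and Prim1, a share of 24.4% that is close to its 21% of all tested genes. It was lowest for 5, Pola1, Pola2, Gins3, Rpa1 and Fen1 (11.1%, against 23.9%). Tumors 3 and 4, of one title number, had the highest summed levels of replication genes, 73739 and 69558. Tumor 1, the other with a trachea title, was at 55021, within the range of the lung-titled tumors (53775 to 73739).

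Among normal lungs, normal lung 3 was highest for 20 of the 45 genes (44.4%), against 19.8% of all tested genes. They included all 6 MCM2-7 genes, Cdc6, Pcna, Lig1 and Clspn. Mki67 was at 1055 in normal lung 3 and at 310 to 538 in the others. The sum of 4 erythroid markers there was 176949 against at most 33461 in the other normal lungs, and none of the 4 was at 0. The part of blood cells in these values was not tested. Without normal lung 3, 42 genes were called higher.

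**Figure D5:**
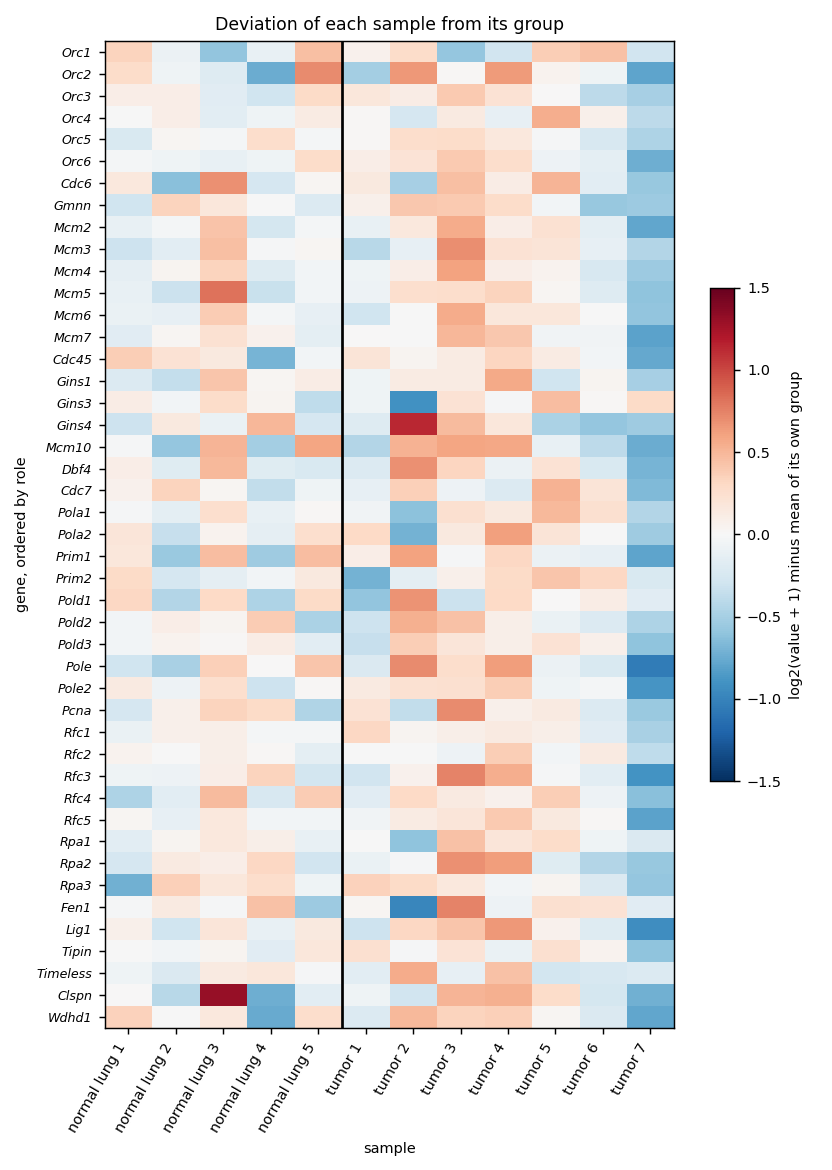
Log2(value + 1) of each replication gene in each sample minus the mean of the sample's own group, with genes ordered by role and the 2 groups set apart by a line. The column of tumor 7 is low for nearly all genes, and that of normal lung 3 is above its group for 36 of 45.

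Genes of the same pathway outside the chosen set were mostly higher as well. Of 32 measured, 25 were called higher and 1 lower, against 31.4% and 30.1% of all tested genes. Their median log2 fold change was 1.77, against 0.04 over all tested genes. The largest increases were in Dtl, which targets Cdt1 for destruction in S phase (5.19 ± 0.33), Top2a, the topoisomerase of dividing cells (4.79 ± 0.26), Ticrr, which helps Cdc45 to load (4.69 ± 0.35), and Chaf1b, of the factor that places histones on new DNA (4.31 ± 0.26). All 5 nucleosome assembly genes and all 3 alternative clamp loader genes were higher. All 3 paralogs of the MCM family outside licensing (Mcm8, Mcm9 and Mcmdc2) were called higher too, by 1.22 to 2.17. Mcmdc2 was uneven (2.04 ± 0.64), since tumors 1 and 2, at 9.5 and 17.9, lay within the normal range of 8.6 to 20.6 and the other 5 between 74.8 and 171. The 12 markers of cycling cells, Mki67 among them, were all higher and had a median of 4.25, above that of every role group of the replication genes.

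The small polymerase subunits stood apart from their catalytic partners. Pold4, the smallest subunit of polymerase delta, was at 99.3, 202, 181, 227 and 135 in normal lung and at 23.3 to 110 in tumors, a change of -2.24 ± 0.38 (adjusted p = 0.000215), while Pold1, Pold2 and Pold3 rose. The value of 110 was that of tumor 7, the other 6 tumors lay between 23.3 and 33, and without tumor 7 the change was -2.52. Pold4 shares 286 bases of its 1.16 kilobases of exon with AC109138.7 on the same strand, which makes its count uncertain. Pole3 and Pole4, the histone-fold subunits of polymerase epsilon, were at 0.32 ± 0.30 and 0.37 ± 0.17 and were not called (adjusted p = 0.37 and 0.0694). Lrwd1 (0.26), Ddb1 (0.10), Top1 (-0.14) and Rnaseh2c (-0.49) were not called either. Ddb1 belongs to the same ligase as Dtl, and Top1 is the topoisomerase that is present throughout the cell cycle. Within that ligase Dtl rose by 5.19, Cul4a by 0.60 ± 0.14 and Cul4b by 0.49 ± 0.16, and within RNase H2 the subunits Rnaseh2a and Rnaseh2b rose by 1.19 ± 0.16 and 1.96 ± 0.23.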

How the data were processed

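Poly-A RNA of 12 mouse samples was sequenced as paired reads, per the labels' protocols. The table deposited by the authors holds a normalized read count signal per gene, which is the count divided by a size factor for the sample. The submitters' processing notes name featureCounts, DESeq2 and GRCm39, and the aligner, annotation and use of strand are not given in the sources used here. Every value was a whole multiple of its column's smallest step (tolerance 0.001 reads), so whole reads were recovered in all 12 columns. Symbols and exon lengths came from GENCODE M21, which named 29982 of 30399 identifiers and left 417 without a symbol. The promoters came from RefSeq.

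Groups follow the tissue label. The main test was limma 3.58.1 in R 4.3.3 (lmFit, eBayes with trend) on log2(value + 1) for the 23674 genes whose mean was 1 or more, with Benjamini-Hochberg adjustment and a threshold of 0.05. The script was tested on simulated data. Count tests on the recovered reads (edgeR 4.0.16 and DESeq2 1.42.0) were alternatives: edgeR called 6208 genes higher and 5476 lower, with 100% of values whole. At these depths 3 reads are a value of up to 4.85, and floors cover counting error only. A ratio planned with Cdt1 was not run. Genes printed in full have the largest or smallest change of their role, were not called, or enter a ratio; other pathway genes are named for the 4 largest changes in a direction or when not called. Cul4a, Cul4b, Rnaseh2a, Rnaseh2b, Mcm8, Mcm9 and Mcmdc2 fall outside this rule and were chosen after their values were seen. The genes, lists and words were chosen with earlier results of these data known.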

Additional observations from a re-analysis of the deposited data

Results flagged for a closer look

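For each of the 45 genes and 5 ratios, on the log2 scale, the most extreme sample of each group was set against Dixon's 95% limit (a gap over range of 0.71 for 5 samples and 0.568 for 7). Of 100 groups examined 9 passed it, and chance alone would give about 5. Tumor 7 was far below the other tumors in 5 genes. Mcm7 was at 731 there and at 1227 to 1805 in the others, and Cdc45 was at 437 against 726 to 937. Pole2 was at 227 against 400 to 544, Rfc5 at 686 against 1157 to 1568, and Tipin at 636 against 905 to 1150. Normal lung 3 was far above the other normal lungs in 2 genes, with Mcm5 at 296 against 133 to 164 and Mcm6 at 465 against 328 to 351. Orc6 was at 309 in normal lung 5 and at 237 to 251 in the other normal lungs. Gins3 was at 182 in tumor 2 and at 328 to 474 in the other tumors.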

How the results depend on the processing

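Of the 45 replication genes 42 kept their direction and their call in all 22 alternatives, 12 of which left out a sample. The count called higher ran from 42 to 45. Orc3 gained a call with equal totals (0.61), with tumors of one title number averaged (0.47), without the trachea-titled tumors (0.47), and without normal lung 5, tumor 6 or tumor 7 (0.47 to 0.48). Orc5 gained one with equal totals (0.50) and without tumor 7 (0.37). Gins4 lost its call in the 5 alternatives named above. Scaling to equal totals moved the median of all genes from 0.04 to 0.23 and that of the replication genes from 2.47 to 2.67. With the Y-linked level in the model the median of the replication genes was 2.34, the lowest of the alternatives, and 42 were called higher. The other replication genes called lower numbered 2 with edgeR and with DESeq2, and 1 to 2 when a sample was left out; the second gene was Rnaseh2c (-0.55 in edgeR, -0.53 in DESeq2, -0.62 without normal lung 1). The Cdc45 to Mcm2 difference was -0.05 without the trachea-titled tumors and -0.09 to 0.13 when a sample was left out (-0.05 without normal lung 3, -0.09 without normal lung 4, -0.04, -0.02 and -0.00 without tumors 1, 4 and 6). The cause was not tested. The other 4 ratios kept their direction and their side of the threshold in every alternative run for them. No paired analysis was possible because the groups share no title number. Depth limited no replication gene: the lowest value of any was above the value of 3 reads.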
